A study of Caenorhabditis elegans with 6 samples.

Results

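The nuclear genes of oxidative phosphorylation were followed in starved Caenorhabditis elegans larvae of a linc-133 mutant and of the wild type. They were taken from the deposited gene table by symbol: protein-coding genes named nuo, nduf, sdha, sdhb, sdhd, ucr, cyc, cox or atp with a suffix, together with gas-1, isp-1, mev-1 and lpd-5. This gave 47 genes of 45519 listed, of which 19986 are protein-coding. By their known roles 13 belong to complex I, 5 to complex II, 7 to complex III, 2 encode cytochrome c, 7 are subunits of complex IV, 8 serve the assembly of complex IV and 5 belong to complex V. On the genome build WBcel235, 15 of the 47 (31.9%) lie on chromosome I and 12 on chromosome III, against 14.4% and 13.2% of all protein-coding genes. The other 20 are spread over chromosomes II, IV, V and X.

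RNA was taken from whole worms that had hatched from eggs kept in M9, a buffer without food, for 3 days at 20 °C, so that they halted as first-stage larvae (L1 arrest). There were 3 libraries of the strain linc-133(aqz 3), which carries an allele of a gene for a long intervening noncoding RNA, and 3 libraries of N2, the standard laboratory wild type. The labels do not give the kind of lesion in aqz 3, and they do not say whether the 3 libraries of a strain came from separate cultures, so every p below rests on how far these 6 libraries scatter, and that scatter may be technical. The mutant is a single allele, with no rescued strain among the samples.

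Oxidative phosphorylation makes ATP at the inner mitochondrial membrane. Complexes I and II pass electrons from NADH and succinate to ubiquinone, complex III hands them on to cytochrome c, and complex IV, cytochrome c oxidase, gives them to oxygen. Complexes I, III and IV pump protons as they do so, and complex V, the ATP synthase, uses the returning protons to make ATP. In C. elegans, mutations in these genes are known to change lifespan, growth rate and the response to oxygen, and larvae in L1 arrest live on stored reserves. Some subunits are encoded by the mitochondrial genome and were not analysed here.

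Recovered reads on genes came to between 16108063 and 18556695 per library. The targeted gene linc-133 was near the limit of detection in both strains, with 6, 2 and 2 reads in the mutant libraries against 9, 6 and 5 in the wild-type libraries, so its level does not check the genotype. The 6 yolk protein genes of the adult list summed to 0.643 to 1.69 FPKM in the mutant libraries and to 1.42 to 1.99 FPKM in the wild-type libraries, whereas the 6 body wall muscle genes summed to 7436 to 9879 FPKM in the mutant and to 8181 to 8738 FPKM in the wild type. Of the 6 embryo markers, summed at 190.0 to 220.1 FPKM in the mutant and at 158 to 228 FPKM in the wild type, skn-1 and pos-1 gave most of the signal. The sums of the pharyngeal, intestinal, neuronal and germ line lists also overlapped between the strains, as did that of the epidermal list, which ran from 619 to 701 FPKM in the mutant and from 286 to 710.5 FPKM in the wild type and was carried by the collagen gene sqt-3. The median log2 change of the 5 tested epidermal genes was 0.43. In 2 of them all mutant libraries were above all wild-type libraries, against 10.5% of all genes tested. They were the transcription factor genes elt-3 (log2 change 0.43, adjusted p = 0.262 in limma) and elt-1 (0.43, adjusted p = 0.312 in limma). Of the 6 neuronal genes 1, ric-19, had all mutant libraries below all wild-type libraries, against 9.54% of all genes tested. Its log2 change was -0.41 (adjusted p = 0.243 in limma). The part of these markers in the results below was not tested. Wild-type replicate 1 stood apart in mitochondrial ribosomal RNA: the longer of the genes measured 11.996 FPKM there and 202 to 408 FPKM in the other 5 libraries, and the shorter 18.6 FPKM against 171 to 275 FPKM. In whole larvae a smaller share of cells of a type and less RNA per cell cannot be told apart.

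The genes of the respiratory chain were among the most abundant messages of arrested larvae in both strains. FPKM, fragments per kilobase of gene scaled to library size, is a level per gene length, which allows levels to be compared between genes as far as the file's gene lengths are right. At least 4 tested members (mev-1, ucr-11, atp-4 and lpd-5) have a length in the file well above their exonic length, as given further on, and may stand too low. Of the 47 genes, 41 reached a mean of 1 FPKM over the 6 libraries and were tested. Of these 41, 27 (65.9%) averaged at least 100 FPKM, against 1081 of 13868 tested protein-coding genes (7.79%), and their median stood at percentile 94.5 of those genes. Together the 47 genes took 1.59%, 1.67% and 1.55% of all protein-coding FPKM in mutant replicates 1, 2 and 3, against 1.65%, 1.601% and 1.65% in wild-type replicates 1, 2 and 3. The means of 1.603% ± 0.0638 in the mutant and 1.63% ± 0.0286 in the wild type (SD, n = 3 each) differed by less than the spread between mutant libraries.

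**Figure D1:**
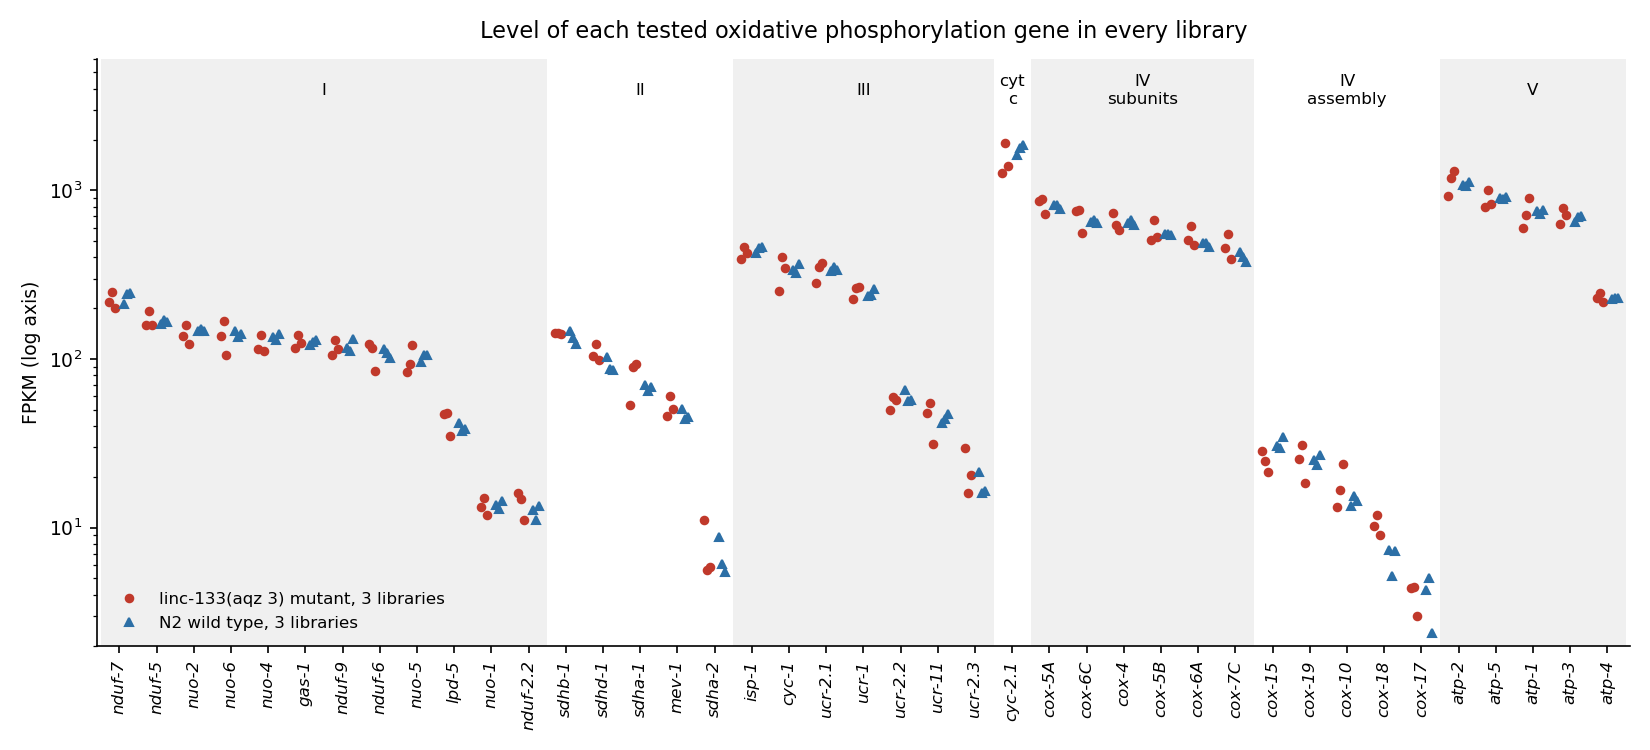
Level of the 41 tested genes in every library, in FPKM on a log axis, grouped by complex and ordered by mean level, with the 3 mutant libraries as circles to the left of the 3 wild-type libraries as triangles. Cytochrome c (cyc-2.1) has the highest level, the subunits of complexes IV and V follow, and the assembly factors of complex IV lie below 35 FPKM.

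Levels differed far more between complexes than between strains. Cytochrome c, encoded by cyc-2.1, led with a mean of 1639.9 FPKM over the 6 libraries. The median tested gene stood at 745 FPKM in complex V, 601 FPKM among the subunits of complex IV, 249 FPKM in complex III, 122 FPKM in complex I, 73.4 FPKM in complex II and 16.2 FPKM among the assembly factors of complex IV. The plot of levels by complex shows the same order in each strain, with mutant and wild-type points interleaved for nearly every gene. The tested genes of the 2 sets of complex IV thus stood far apart: the lowest subunit, cox-7C, averaged 435 FPKM and the highest assembly factor, cox-15, averaged 28.2 FPKM.

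No member passed the test between strains. The test was limma on log2(FPKM + 1), fitted over the 16794 genes that averaged 1 FPKM or more and adjusted by the Benjamini-Hochberg method. It called 0 of 41 members at an adjusted p under 0.05, where 0.0% of all genes were called, and the lowest adjusted p of a member in limma was 0.260. At an unadjusted p under 0.05 limma gave 1 member higher and 0 lower, against 7.22% of all genes higher and 6.48% lower. Limma's voom on reads recovered from the table likewise called 0 members after adjustment. Mutant and wild-type libraries were fully apart in 1 member on the higher side and in 1 on the lower side, against 10.5% and 9.54% of all genes.

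The size of the differences was small as well. A fold limit of 1.2, chosen after the values were seen, was passed by 2 of the 41 members (cox-18 and cox-15), whereas 45.9% of all genes tested passed it in either direction. The nearest genes inside the limit were cox-10 at a log2 change of 0.26 and ucr-2.3 at 0.26, both mutant over wild type. For 40 of the 41 members (97.6%) the 95% interval of the log2 change lay within 2-fold either way. This held for 64.9% of all genes tested and for 86.4% of protein-coding genes averaging at least 100 FPKM. Such shares differed with level: 61.1% of 13868 tested protein-coding genes stayed within 1.2-fold, and 69.7% (753) of the 1081 that averaged at least 100 FPKM. Among members averaging at least 100 FPKM, 27 of 27 stayed within it. The median log2 change of the members was 0.02, with 23 positive and 18 negative values, and that of all genes tested was -0.0015. The sign of the members' median turned with the scaling, to -0.03 after quantile scaling and to -0.00868 after a correction for gene length, and it was -0.03 without mutant replicate 2 and 0.06 without mutant replicate 3.

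**Figure D2:**
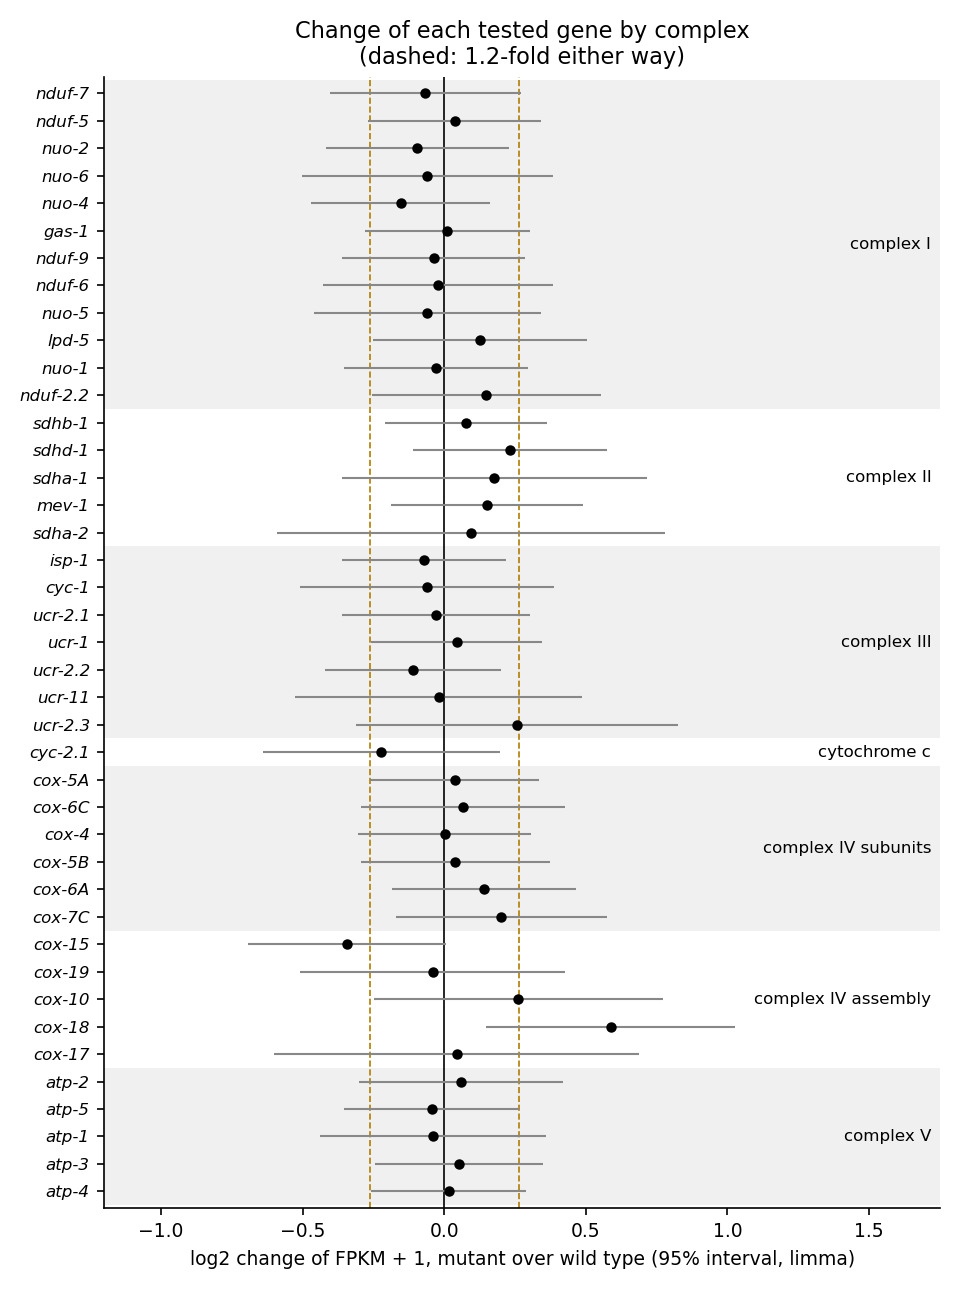
Log2 change of FPKM + 1, mutant over wild type, for each of the 41 tested genes (points) with the 95% interval from limma (bars), grouped by complex. The points of 39 genes lie between the dashed lines at 1.2-fold either way, and cox-18 at 0.59 and cox-15 at -0.34 lie outside them.

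Complex I takes electrons from NADH. Its 12 tested genes had log2 changes between -0.15 and 0.15, with 4 positive, 8 negative and a median of -0.03, which was -0.09 without mutant replicate 2 and 0.03 without mutant replicate 3. Summed FPKM of the complex was 1273, 1462 and 1204 in mutant replicates 1, 2 and 3, and 1314, 1342 and 1374 in the wild-type replicates, so that the mutant libraries spanned the wild-type range. gas-1, the core subunit beside the quinone site whose loss makes worms hypersensitive to volatile anaesthetics, measured 117, 138 and 125 FPKM in mutant replicates 1, 2 and 3 and 121, 127 and 129 FPKM in the wild-type replicates. These libraries overlapped, with a log2 change of 0.01 (SE 0.122).

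nuo-6, an accessory subunit in which a known mutation lengthens life, measured 137, 168 and 106 FPKM in the mutant and 146, 135 and 140.2 FPKM in the wild type. Mutant replicate 2 was the highest and mutant replicate 3 the lowest of its 6 libraries, around a log2 change of -0.06 (SE 0.186). nduf-7, an iron-sulphur core subunit, was the most abundant gene of the complex, at 224 ± 25.3 FPKM in the mutant and 234 ± 20.3 FPKM in the wild type (SD, n = 3 each). nduf-5 came next, at 170.3 ± 18.5 FPKM in the mutant and 165 ± 3.99 FPKM in the wild type (SD, n = 3 each). nuo-4, an accessory subunit, had the lowest p of the complex, with 115, 138 and 112 FPKM in the mutant against 135, 129 and 139.9 FPKM in the wild type. Its log2 change of -0.15 (SE 0.132) had an adjusted p of 0.666 in limma. lpd-5, the worm homologue of the accessory subunit NDUFS4, measured 47.3, 48.1 and 34.9 FPKM in the mutant and 41.9, 37.6 and 38.5 FPKM in the wild type. Mutant replicates 1 and 2 were above all wild-type libraries and mutant replicate 3 was below them.

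Within complex I, 2 core genes stood well below the rest. nuo-1, which encodes the subunit that binds NADH and FMN, averaged 13.5 FPKM, and nduf-2.2, a second copy of the gas-1 subunit, averaged 13.2 FPKM, while the 9 highest genes of the complex averaged 101 to 229 FPKM. nuo-1 measured 13.2, 15.01 and 11.9 FPKM in the mutant and 13.6, 12.8 and 14.5 FPKM in the wild type. The span of nuo-1 on chromosome II, from 11097837 to 11100146, is shared over 99.4% of its bases with the row C09H10.4 on the same strand. The exons of the pair in the WBcel235 annotation share 6 bases (0.374% of nuo-1), and C09H10.4 averaged 0.374 FPKM.

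Complex II, succinate dehydrogenase, joins the citric acid cycle to the respiratory chain. All 5 of its genes had positive log2 changes, between 0.08 and 0.23 with a median of 0.15, and none passed the test (lowest adjusted p in limma 0.524). The median was 0.07 without mutant replicate 2 and 0.23 without mutant replicate 1. Summed FPKM was 356, 421 and 389 in mutant replicates 1, 2 and 3, and 378, 336 and 329 in the wild-type replicates. The libraries overlapped, since wild-type replicate 1 lay above mutant replicate 1. sdhd-1, a membrane anchor, came nearest to a difference, with 104, 123 and 98.3 FPKM in the mutant against 102, 87.1 and 86.5 FPKM in the wild type. Mutant replicate 3 was below wild-type replicate 1, and the log2 change was 0.23 (SE 0.144, adjusted p = 0.524 in limma).

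sdha-1, the flavoprotein subunit, measured 53.6, 89.6 and 93.9 FPKM in the mutant and 70.4, 64.8 and 68.2 FPKM in the wild type. Mutant replicate 1 was the lowest of the 6 libraries and the other mutant libraries were the highest. Without mutant replicate 1 its log2 change was 0.43 (adjusted p = 0.181 in limma), against 0.18 with all libraries. mev-1, the cytochrome b anchor whose mutant is known for sensitivity to oxygen and a short life, measured 46.0, 60.1 and 50.4 FPKM in the mutant and 50.4, 44.1 and 45.6 FPKM in the wild type, also overlapping. sdhb-1, the iron-sulphur subunit, was the steadiest gene of all 41 within the mutant, at 142, 142 and 141 FPKM, while the wild-type libraries held 146, 134 and 123 FPKM.

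Complex III transfers electrons from ubiquinol to cytochrome c. Of its 7 genes 2 had positive and 5 negative log2 changes, between -0.11 and 0.26 with a median of -0.03, which was -0.14 without mutant replicate 2 and 0.03 without mutant replicate 1. Summed FPKM was 1280.2, 1609.8 and 1516 in mutant replicates 1, 2 and 3, and 1459, 1479 and 1546 in the wild-type replicates. isp-1, the Rieske iron-sulphur protein in which a point mutation is known to slow growth and lengthen life, was the most abundant, at 389, 464 and 422 FPKM in the mutant and 424, 453 and 462 FPKM in the wild type. Mutant replicates 1 and 3 were below all wild-type libraries and mutant replicate 2 was above them.

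cyc-1, cytochrome c1, measured 254, 401 and 346 FPKM in the mutant and 338, 323 and 368 FPKM in the wild type, again with the mutant libraries on both sides. The core proteins ucr-1 and ucr-2.1 averaged 253 ± 23.3 and 335 ± 45.2 FPKM in the mutant, and 244 ± 12.2 and 339.6 ± 8.25 FPKM in the wild type (SD, n = 3 each). ucr-2.3, the least abundant core protein gene, had the largest change of the complex, with 29.8, 16.1 and 20.5 FPKM in the mutant and 21.4, 16.1 and 16.4 FPKM in the wild type. Its log2 change of 0.26 (SE 0.238) came mainly from mutant replicate 1.

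cyc-2.1, the mobile carrier cytochrome c on chromosome IV (4747895 to 4749031), measured 1266, 1916 and 1395 FPKM in the mutant and 1626, 1780.1 and 1857 FPKM in the wild type. Mutant replicates 1 and 3 lay below all wild-type libraries, and mutant replicate 2 above them. The log2 change was -0.22 (SE 0.175, adjusted p = 0.635 in limma). Without mutant replicate 2 it was -0.40, with a limma p of 0.0168 before adjustment and 0.413 after it.

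Complex IV, cytochrome c oxidase, passes electrons to oxygen. All 6 of its tested subunit genes had log2 changes above 0, from 0.0011 for cox-4 to 0.20 for cox-7C with a median of 0.05, and none passed the test (lowest adjusted p in limma 0.626); after the length correction cox-5A turned to -0.00518. The median was 0.0040 without mutant replicate 2 and 0.17 without mutant replicate 3. Summed FPKM of the subunits was 3817, 4114 and 3259.7 in mutant replicates 1, 2 and 3, and 3577, 3599.6 and 3412 in the wild-type replicates. The mutant libraries thus held both the highest and the lowest sum. cox-7C measured 458, 551 and 394 FPKM in the mutant against 431, 404 and 374 FPKM in the wild type, where mutant replicate 3 lay below wild-type replicates 1 and 2. cox-5A, the most abundant subunit gene, averaged 825 ± 90.4 FPKM in the mutant and 802 ± 26.8 FPKM in the wild type (SD, n = 3 each).

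The assembly factors of complex IV held both genes past 1.2-fold. cox-18, whose yeast counterpart inserts a core subunit of the oxidase into the membrane, lies on chromosome IV from 1097453 to 1103010 (gene 176930). It measured 10.3, 11.96 and 9.01 FPKM in mutant replicates 1, 2 and 3, from 233, 213 and 155 reads, against 7.37, 5.199 and 7.28 FPKM in the wild-type replicates, from 155, 103 and 137 reads. The 3 mutant values were all above the 3 wild-type values. The log2 change was 0.59 (SE 0.184, 95% interval 0.15 to 1.03), with a limma p of 0.0161 before adjustment and 0.260 after it.

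The log2 change of cox-18 lay between 0.45 and 0.68 when any 1 library was left out. The unadjusted limma p was then 0.0565 without mutant replicate 2 and 0.0574 without wild-type replicate 2, in fits with fewer libraries. Limma's adjusted p for cox-18 ran from 0.193 to 0.634 over all alternatives. cox-15, an enzyme of heme A synthesis on chromosome II (11232756 to 11234952, gene 174712), moved the other way, with 28.3, 24.8 and 21.3 FPKM in the mutant against 30.5, 29.6 and 34.6 FPKM in the wild type. Every mutant library lay below every wild-type library, and the log2 change was -0.34 (SE 0.146, 95% interval -0.69 to 0.0063), with an adjusted p of 0.374 in limma and 0.226 to 0.708 over the alternatives.

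cox-10, which acts before cox-15 in heme A synthesis, measured 13.3, 16.8 and 23.8 FPKM in the mutant and 13.4, 15.5 and 14.4 FPKM in the wild type. Its libraries overlapped and its log2 change was 0.26 (SE 0.214). The copper handling genes cox-19 and cox-17 had log2 changes of -0.04 (SE 0.196) and 0.04 (SE 0.270), the second from 13 to 29 reads per library. Among the tested members, cox-17 had the lowest level of all.

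Complex V makes ATP. Its 5 genes had the narrowest range of log2 changes, from -0.04 to 0.06 with a median of 0.02, which turned to -0.09 after quantile scaling and was -0.03 without mutant replicate 2 and 0.10 without mutant replicate 1. atp-2, the catalytic beta subunit, measured 932, 1183 and 1309.7 FPKM in the mutant and 1073, 1062 and 1119.8 FPKM in the wild type. atp-1, the alpha subunit, measured 599, 719 and 901 FPKM in the mutant and 758, 725 and 766 FPKM in the wild type. In both genes mutant replicate 1 was the lowest library and mutant replicate 3 the highest, and the strains overlapped. atp-2 averaged 1141 ± 192 FPKM in the mutant and 1085 ± 30.7 FPKM in the wild type, and atp-1 averaged 739.6 ± 152 FPKM in the mutant and 749.7 ± 22.2 FPKM in the wild type (SD, n = 3 each). Both differences were smaller than the mutant SD.

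atp-5, a stalk subunit, and atp-3, the subunit known as OSCP that ties the stalk to the head, averaged 878 ± 116 and 709 ± 75.2 FPKM in the mutant, and 900.1 ± 10.3 and 681 ± 26.4 FPKM in the wild type (SD, n = 3 each). atp-4, a coupling factor, had the smallest range over the 6 libraries of all 41 genes, at 231, 247 and 217 FPKM in the mutant and 226, 229 and 231 FPKM in the wild type, with 1.14-fold between the highest and the lowest. Its log2 change was 0.02 (SE 0.115).

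The mutant libraries scattered more than the wild-type libraries in nearly all of these genes. The SD of log2(FPKM + 1) over 3 libraries was larger in the mutant for 38 of 41 members, with a median of 0.199 in the mutant and 0.0818 in the wild type. Over all genes tested it was larger in the mutant for 66.2%, with medians of 0.284 and 0.183. Among genes averaging at least 100 FPKM the shares were 96.3% of 27 members and 77.8% of 1081 protein-coding genes. sdhb-1, cox-17 and cox-18 were the 3 members with the smaller SD in the mutant. The highest of 3 libraries exceeded the lowest by a median of 1.32-fold in the mutant and 1.11-fold in the wild type.

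**Figure D3:**
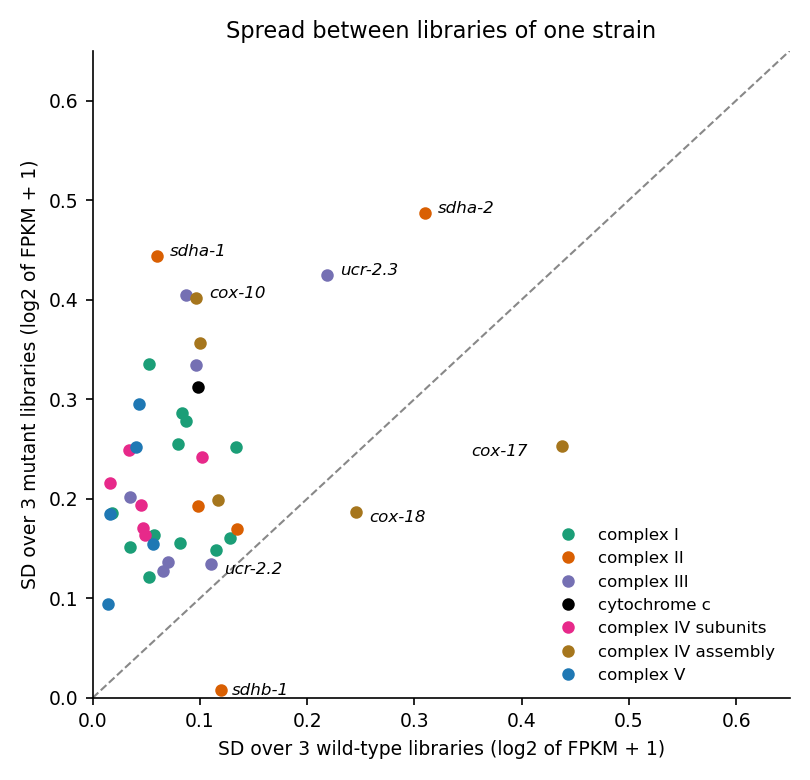
SD over the 3 libraries of each strain, on the scale of log2(FPKM + 1), for the 41 tested genes, with the mutant on the vertical and the wild type on the horizontal axis and the complex by colour. Of the 41 points 38 lie above the dashed line of equal SD, and sdhb-1, cox-17 and cox-18 lie below it.

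Much of this scatter was shared between genes. Mutant replicate 2 was the highest of the 6 libraries for 23 members and the lowest for 0, while mutant replicate 1 was the lowest for 17 and mutant replicate 3 for 14. Taken against each gene's own mean, 35 of 41 members were above it in mutant replicate 2, by a median of 0.14 on the log2 scale, and 28 of 41 were below it in mutant replicate 3. The median deviation of the members was -0.06 in mutant replicate 1 and -0.09 in mutant replicate 3, and between -0.0153 and 0.0046 in the wild-type libraries. In all tested protein-coding genes the median deviation of mutant replicate 2 was 0.03.

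Within a mutant library the deviation followed gene length. Across the 41 members Spearman's rho between gene length and deviation was -0.32, -0.33 and 0.45 in mutant replicates 1, 2 and 3, and -0.16, -0.24 and 0.19 in the wild-type replicates. Across 13868 protein-coding genes it was -0.33, -0.31 and 0.41 in the mutant replicates and 0.14, 0.04 and -0.0027 in the wild-type replicates. These are correlations across genes that share a library, so they are given without a p. The 8 members under 700 bases deviated by a median of 0.06, 0.24 and -0.26 in mutant replicates 1, 2 and 3, and the 6 members of 2000 bases or more by -0.18, 0.12 and 0.16. In mutant replicate 2 these long members lay on both sides of their means, from -0.26 for sdha-2 to 0.31 for ucr-11. All protein-coding genes of that length had a median of -0.10 there. Among the long members above their mean, mev-1 (0.28) and ucr-11 (0.31) are long in the file alone, with 728 and 281 exonic bases in the WBcel235 annotation. sdha-1 (0.31), also above its mean there, is long in both, with 2504 bases in the file and 2400 exonic bases.

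**Figure D4:**
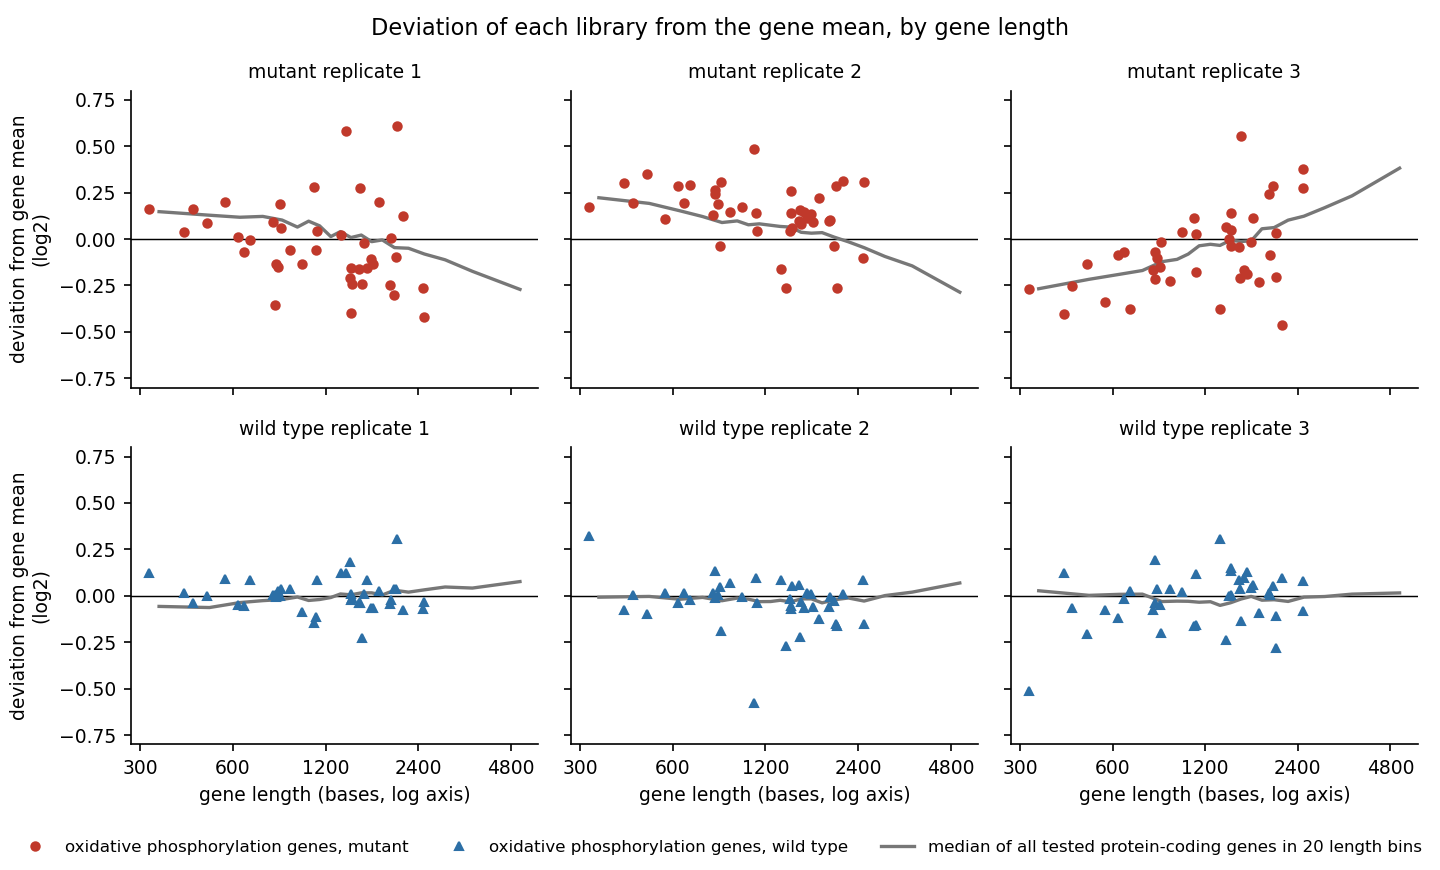
Deviation of each library from the mean of the gene over 6 libraries (log2) against gene length in bases (log axis), for the 41 tested genes as points and for all tested protein-coding genes as a line of medians in 20 bins. The line slopes down in mutant replicates 1 and 2 and up in mutant replicate 3, and is nearly flat in the wild-type libraries.

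The ratio of complex V to complex IV varied more across the mutant than across the wild-type libraries. The genes of these complexes differ in the length given in the file. By that length the 5 genes of complex V have a median of 1937 bases and the 6 tested subunit genes of complex IV one of 717 bases. The contrast rests in part on long models in the file: atp-4 has 1952 bases there and 542 exonic bases in the WBcel235 annotation. Summed FPKM of complex V over that of complex IV was 0.836, 0.958 and 1.22 in mutant replicates 1, 2 and 3, against 1.01, 0.999 and 1.09 in the wild-type replicates. The means of 1.004 ± 0.194 in the mutant and 1.03 ± 0.0513 in the wild type (SD, n = 3 each) did not differ beyond the spread. On the log2 scale the SD of the mean difference between the complexes was 0.232 in the mutant and 0.0698 in the wild type, and 0.0980 and 0.0918 after a curve on gene length had been subtracted from each library, an alternative chosen after the data had been seen. For the 41 members that correction left a median SD of 0.155 in the mutant and 0.0831 in the wild type. What made the mutant libraries differ in this way was not tested.

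Genes of one complex varied together over the 6 libraries only loosely. The median Pearson correlation of log2 deviations was 0.48 over 132 pairs from the same complex and 0.26 over 688 pairs from different complexes, each over 6 libraries of 2 strains. It was highest for the subunits of complex IV, at 0.72 over 15 pairs, and lowest for its assembly factors, at -0.07 over 10 pairs. After the length correction the medians within and between complexes were 0.25 and 0.12, that for complex IV subunits was 0.35, and that for complex V was 0.75 over 10 pairs, against 0.45 before it. These pairs share libraries and, within a complex, similar lengths.

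Where the worm has more than 1 gene for a subunit, the same copy dominated in both strains. sdha-1 supplied 90.4% ± 6.49 of the FPKM of sdha-1 and sdha-2 in the mutant and 90.97% ± 1.85 in the wild type (SD, n = 3 each). gas-1 supplied 90.05% ± 1.93 of its pair with nduf-2.2 in the mutant and 91.0% ± 0.835 in the wild type. Among the core proteins of complex III, ucr-2.1 supplied 81.02% ± 2.49 in the mutant and 81.4% ± 1.79 in the wild type, and ucr-2.2 most of the remainder. cyc-2.2, the second cytochrome c gene, had at most 2 reads in any library.

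The genes of ATP synthase that carry other names showed the same pattern. asb-2 supplied 94.6% ± 1.73 of its pair with asb-1 in the mutant and 94.1% ± 1.15 in the wild type (SD, n = 3 each). asg-2 supplied 68.3% ± 5.75 of its pair with asg-1 in the mutant and 67.5% ± 2.86 in the wild type. The file gives asg-2 1598 bases against 497 exonic bases in the WBcel235 annotation, and asg-1 672 against 476. The share of asg-2 may therefore be understated. mai-2, a homologue of the ATPase inhibitor, supplied at least 99.99% of its pair with mai-1 in each library. The shares of sdha-1, gas-1, ucr-2.1, asb-2 and asg-2 differed between strains by less than the SD of the mutant libraries. Reads from near-identical stretches of 2 copies could have been split by the counting, so the shares of the minor copies are uncertain.

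The 6 untested members were nuo-3, cyc-2.2, cox-6B, cox-11, cox-14 and cox-16, all under 1 FPKM on average in each strain. nuo-3 and cox-16 are listed at 0 in every library. cox-6B, cyc-2.2, cox-14 and cox-11 had at most 1, 2, 3 and 5 reads in any library. In 5 of these 6, all except cyc-2.2, the gene's row shares its span with another protein-coding row on the same strand, but the overlap of exons in the WBcel235 annotation differs among them. nuo-3 shares 72.6% of its exonic bases with Y57G11C.1147, cox-14 shares 75.7% with Y70G10A.4, and cox-16 shares 61.6% with C24G6.8. The other rows were at or near 0 as well, with means of 0.211 FPKM for Y57G11C.1147, 0.0 FPKM for Y70G10A.4 and 0.0 FPKM for C24G6.8. Reads of these 3 loci could have been assigned to neither row, which was not tested. cox-11 shares no exonic base with another gene, and cox-6B shares 1.399% of its exonic bases, with nduc-2. The row of cox-6B spans chromosome III from 2699663 to 2786859. For nuo-3, cox-14 and cox-16 a level near 0 therefore does not show that the protein's message was absent. Nor does it for cox-6B or for cox-11, whose row shares 81.4% of its span with JC8.7. The ubiquinone genes coq-2 and coq-8 share 0.0% of their exonic bases and are also listed at 0 in every library. Why such rows hold no reads was not tested.

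Shared spans also touch 8 tested members, with a median level of 75.3 FPKM, against 139 FPKM for the other 33 tested members. No tested member shares 50% or more of its exonic bases with another gene, but some have long models in the file. The file gives mev-1, which overlaps ced-9, a length of 2036 bases against 728 exonic bases in the WBcel235 annotation, a ratio of 2.80. For ucr-11, which overlaps spg-20, the ratio was 7.62, for atp-4, which overlaps alh-4 and T05H4.11, it was 3.601, and for lpd-5, which overlaps ZK973.9, it was 2.92. FPKM divides by the file's length, so the levels of these 4 genes may be understated beside other genes, while the comparison between strains uses the same length in both. The overlapped rows ced-9, spg-20 and ZK973.9 were at 0.0 FPKM, and alh-4 and T05H4.11 averaged 22.3 and 17.04 FPKM. Whether the rows of these 4 genes also hold reads of their neighbours, which would bear on the comparison between strains, was not tested. Without the 13 genes that share a span, tested or not, the median log2 change of the members was 0.04.

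Genes that feed or serve the respiratory chain were read from the same fit. Their 7 lists held 56 genes, of which 49 were tested, and limma called 0 of them at an adjusted p under 0.05, where 0.0% of all genes were called. At an unadjusted limma p under 0.05 there were 4 higher and 1 lower, against 7.22% and 6.48% of all genes. The 7 other genes were under 1 FPKM, and coq-2 and coq-8 among them are listed at 0 in every library.

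The other ATP synthase genes had 5 positive and 1 negative log2 change among 6 tested, with a median of 0.11, which was 0.00016 without mutant replicate 2 and 0.24 without mutant replicate 3. asb-2, the most abundant of them, measured 532, 574 and 601 FPKM in the mutant and 535, 521 and 536 FPKM in the wild type, with a log2 change of 0.10 (SE 0.110). asg-2 measured 196, 227 and 194 FPKM in the mutant against 182, 180.2 and 180.4 FPKM in the wild type. All mutant libraries of asg-2 lay above all wild-type libraries, with a log2 change of 0.18 (SE 0.121) and an adjusted p of 0.560 in limma. The other assembly factors, which include the copper chaperone sco-1 and the complex III chaperone bcs-1, had 5 of 5 negative log2 changes, between -0.31 and -0.07 with a median of -0.18, and a lowest adjusted p of 0.450 in limma.

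ant-1.1, the main carrier that exchanges ADP for ATP across the inner membrane, stood above every member, at 5595, 7356 and 7823 FPKM in the mutant and 6392, 6857 and 7304 FPKM in the wild type. Its libraries overlapped and its log2 change was 0.0029 (SE 0.152), with a sign that turned to -0.01 without the authors' scaling and to -0.04 after the length correction. It supplied at least 99.85% of the FPKM of its 4 copies in each library. ucp-4, the uncoupling protein, averaged 9.53 ± 1.14 FPKM in the mutant and 9.49 ± 0.653 FPKM in the wild type (SD, n = 3 each).

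Ubiquinone synthesis had log2 changes of both signs, 3 positive and 3 negative among 6 tested genes. coq-4 measured 23.6, 21.1 and 17.1 FPKM in the mutant against 33.2, 33.4 and 29.7 FPKM in the wild type, and every mutant library lay below every wild-type library. Its log2 change was -0.62 (SE 0.150, adjusted p = 0.188 in limma), with adjusted p-values of 0.126 to 0.541 over the alternatives. coq-1, which makes the side chain of ubiquinone, measured 24.8, 38.9 and 32.3 FPKM in the mutant against 24.01, 19.4 and 24.01 FPKM in the wild type. Its log2 change was 0.48 (SE 0.191, adjusted p = 0.346 in limma). clk-1, the hydroxylase whose mutants develop slowly and live long, averaged 43.02 ± 4.705 FPKM in the mutant and 36.7 ± 2.15 FPKM in the wild type (SD, n = 3 each).

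In the citric acid cycle 8 genes had positive and 8 negative log2 changes, with a median of -0.0094, which was -0.04 without wild-type replicate 2 and 0.06 without mutant replicate 1. cts-1, citrate synthase, was the most abundant, at 383, 608 and 556 FPKM in the mutant against 355, 401 and 304 FPKM in the wild type. Mutant replicate 1 lay below wild-type replicate 2, and the log2 change was 0.53 (SE 0.208, adjusted p = 0.341 in limma). mdh-2, malate dehydrogenase, measured 97.7, 166 and 155 FPKM in the mutant against 99.05, 97.9 and 88.3 FPKM in the wild type, where mutant replicates 2 and 3 were higher and mutant replicate 1 was not. Of the 16 genes of the cycle, 2 (dlst-1 and idha-1) had all mutant libraries below all wild-type libraries and 0 had them above, against 9.54% and 10.5% of all genes tested. dlst-1 and idha-1 had log2 changes of -0.24 and -0.27 and adjusted p-values of 0.496 and 0.541 in limma. The 4 tested genes of pyruvate dehydrogenase and its regulators had log2 changes between 0.05 and 0.32, the highest in pdhk-2, a kinase of the complex, with an adjusted p of 0.418 in limma.

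The mitochondrial stress list overlaps in function with these genes, since its chaperones and proteases fold and clear respiratory subunits. hsp-60, a chaperonin of the matrix, measured 24.2, 33.99 and 53.4 FPKM in the mutant against 16.3, 13.3 and 14.5 FPKM in the wild type (adjusted p = 0.180 in limma), and atfs-1, the transcription factor of this response, averaged 62.3 ± 5.05 FPKM in the mutant and 44.9 ± 5.55 FPKM in the wild type (SD, n = 3 each, adjusted p = 0.253 in limma). In both genes every mutant value exceeded the wild-type values. They were the 2 such genes among the 9 of the list, against 10.5% of all genes tested. timm-23, a subunit of the import channel and the most abundant gene of the list, averaged 379.8 ± 82.3 FPKM in the mutant and 458 ± 65.1 FPKM in the wild type (SD, n = 3 each). The 9 genes of the list had 5 positive and 4 negative log2 changes with a median of 0.01.

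**Figure D5:**
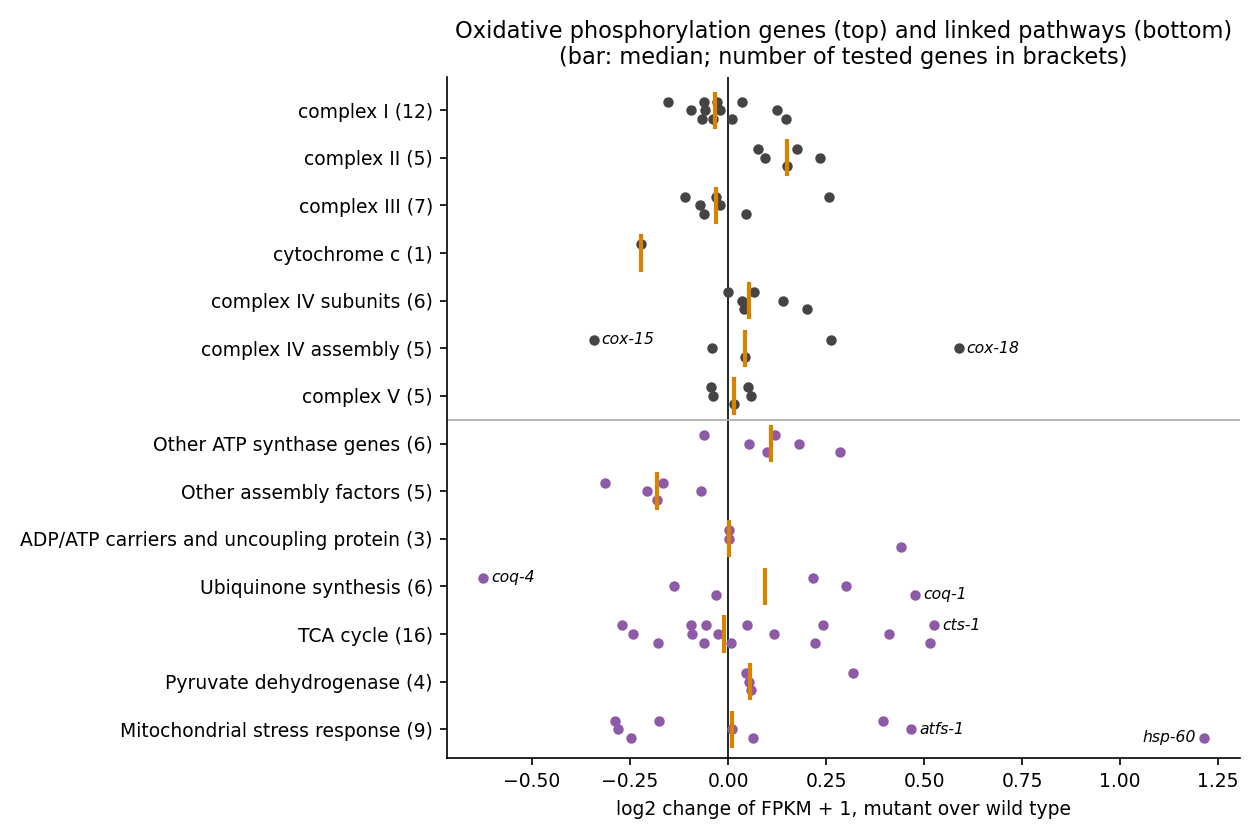
Log2 change of FPKM + 1, mutant over wild type, of each tested gene (points) and the median of each list (bars), with the oxidative phosphorylation genes by complex above the line and linked pathways below it. The points of complexes I, III and V and of the complex IV subunits lie close to 0, and the farthest points are hsp-60 at 1.21, coq-4 at -0.62 and cox-18 at 0.59.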

How the data were processed

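The authors deposited 1 table of FPKM for 45519 genes in 6 libraries, with gene length, position and type, per the file headers. Per the labels' protocols, a TruSeq RNA kit that does not mark strand and an Illumina GAIIx were used. STAR 2.5.2b, StringTie, Bowtie 0.12.2 and the build WBcel235 are listed, without roles, per the submitters' processing notes. For the annotation release, the counter and its strand setting, the entry is: not given in the sources used here.

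Multiplied by gene length, the deposited FPKM fell on whole steps within each library for 100% of 131954 values above 0 (tolerance 0.01, largest distance 2.78e-05), so reads could be recovered. They were used for depth, a read filter and limma's voom. A scaling between libraries is already inside the authors' values.

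Genes averaging 1 FPKM or more entered the test, which was limma (version 3.58.1, under R 4.3.3) applied to log2(FPKM + 1) with trend and robust moderation and strain as the only term. All log2 changes are on that scale, mutant over wild type, which understates the change of low genes. P-values are 2-sided and Benjamini-Hochberg adjusted over 16794 genes, with a threshold of 0.05. The fit was tested on simulated data, with noise drawn separately for each gene and library. Those data lacked the length-linked shifts of the mutant libraries, so they do not show how the fit behaves under such shifts. Alternatives were pseudocounts of 0.1 and 5, other filters, voom, no trend or robust moderation, quantile scaling, no scaling by the authors, protein-coding genes alone, a replicate block and leaving out each library. A length correction (loess of each library's deviation on log2 gene length) and leaving out members with shared spans were added after the data had been seen.

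The members and lists were chosen with earlier results of these data known. Genes to name were taken from linc-133, well-known members and copies, the 2 most abundant members and up to 4 with the lowest p per complex, untested members, and per other list the most abundant gene and the 2 with the lowest p; the others were chosen after their values were seen. Intervals of log2 changes are limma's 95% intervals. Protein and promoter sequences were not used here.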

Additional observations from a re-analysis of the deposited data

How the results depend on the processing

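The count of members past an adjusted p of 0.05 in limma was 0 under every alternative run. Over all genes limma's count was 0 in the fit as reported, with 2301 at an unadjusted p under 0.05, but 3 with voom, 23 without trend and robust moderation, and 1 each with a filter at 10 reads and with protein-coding genes alone. With a block on replicate number cox-18 had an adjusted limma p of 0.424 and 0 members were called. Same-numbered libraries did not deviate together (correlations 0.0162, -0.0344 and 0.0288), which does not show whether they shared a culture or a batch. When a library was left out, members at an unadjusted limma p under 0.05 numbered 0 to 2 higher and 0 to 1 lower, and 1 was lower (cox-15) with the length correction. Members apart between strains on the lower side numbered 2 after quantile scaling, 0 without the authors' scaling and 2 with the length correction. When a library was left out, the median log2 change ran from -0.136 to 0.0306 in complex III, from -0.0320 to 0.217 among complex IV assembly factors, from -0.0164 to 0.149 for the ADP/ATP carriers, from 0.0462 to 0.138 for ubiquinone synthesis, from -0.00221 to 0.184 for pyruvate dehydrogenase and from -0.112 to 0.0578 for the mitochondrial stress list. The complex V median was -0.0857 with quantile scaling, the ubiquinone median 0.0550 with the length correction and the stress list median -0.0818 with a filter at 5 FPKM. The cause of these shifts was not tested.

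Of 990 values recomputed for 55 named genes, 0 passed the threshold and 40 changed sign, 31 of them when a library was left out. The 55 did not include every gene named above. Among those left out was cox-4, whose log2 change was 0.0011. Quantile scaling gave -0.0857 for atp-2, -0.0123 for gas-1, -0.0102 for ucr-1 and -0.0119 for mai-2. The length correction gave -0.00518 for cox-5A, -0.0178 for gas-1 and -0.0437 for ant-1.1, and values without the authors' scaling were -0.00366 for gas-1 and -0.0113 for ant-1.1. Leaving out 1 library gave log2 changes of -0.192 to 0.103 for atp-1, -0.0470 to 0.198 for atp-2, -0.0216 to 0.132 for atp-3, -0.149 to 0.0210 for atp-5, -0.203 to 0.150 for cox-19, -0.0202 to 0.130 for cox-5A and -0.0114 to 0.211 for cox-6C. It gave -0.206 to 0.122 for cyc-1, -0.0548 to 0.0654 for gas-1, -0.0510 to 0.0807 for nduf-5, -0.152 to 0.00647 for nduf-7, -0.108 to 0.0476 for nuo-1, -0.221 to 0.114 for nuo-6 and -0.186 to 0.270 for sdha-2. It also gave -0.107 to 0.0836 for ucr-2.1, -0.0925 to 0.149 for ant-1.1, -0.0194 to 0.146 for pdhb-1, -0.0228 to 0.221 for dlat-1, -0.249 to 0.153 for asb-1, -0.0229 to 0.379 for asg-1 and -0.154 to 0.265 for mai-2.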
